A study of Mus musculus with 12 samples.

Results

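The plasminogen activators and a group of serpins were followed in mouse aorta through 8 genes, namely Plau, Plat, Plaur, F3, Serpine2, Serpinb2, Serpina3n and Serpinf1. They were taken as every array probe that carries 1 of these gene names, which gave 10 of the 55681 probes and 8 of the 34797 gene names on the array. All 8 genes were among the 22758 genes tested, because at least 1 group had a probe for each that was well above background on all 3 arrays. Serpinb2 passed that filter only through the challenged smSocs3-KO group. The arrays measured total RNA of aortic tissue from adult male mice of mixed 129S5/SvEvBrd, C57BL6 and SJL strain. All animals carried the floxed Socs3 alleles. The smSocs3-KO mice also carried the SM22-Cre transgene, which a smooth muscle promoter drives, and their Cre-negative littermates were the WT mice. There were 3 arrays in each of 4 groups, WT before challenge, WT at day 3, smSocs3-KO before challenge and smSocs3-KO at day 3. At day 3, mice had received BAPN, which blocks the crosslinking of collagen and elastin, at 150 mg/kg/day and the pressor hormone AngII at 1000 ng/kg/min from osmotic minipumps. Since the RNA came from whole tissue, fewer cells of a type and less RNA per cell cannot be told apart. The labels number the samples without saying whether each is 1 animal, so the p-values measure the spread between these samples.

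Plasminogen activators are serine proteases that cut plasminogen into plasmin, which digests fibrin and other matrix proteins and activates matrix metalloproteinases. Urokinase acts mostly on cell surfaces through its receptor, and tissue-type activator acts mostly on fibrin. Serpins are suicide inhibitors that trap a protease after it has cut their reactive loop, although some members of the family inhibit no protease. In the aortic wall, smooth muscle cells, endothelium, adventitial cells and infiltrating macrophages can all make parts of this system.

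Socs3 itself was set beside the genotype labels. Its log2 signal (relative to the 75th percentile of its array, as for every level below) was 0.30 ± 0.25 (SD, n = 3) in WT and 0.78 ± 0.62 in smSocs3-KO before challenge, and 1.54 ± 0.93 and 3.04 ± 0.92 at day 3. The mean of Socs3 was therefore not lower in smSocs3-KO. A smooth muscle promoter drives the Cre, whereas the arrays measured whole tissue, so these values do not test the deletion. Whether the Socs3 probe lies in the deleted stretch is not given in the sources used here. The genotype names below are those of the labels. Smooth muscle markers were well above background on all 12 arrays (7 of 7 genes). All 6 WT arrays and smSocs3-KO array 1 before challenge lay on slide 1, and the other 5 smSocs3-KO arrays on slide 2. Between 55.4% and 61.2% of the spots of an array were well above background. Challenged WT array 4 stood apart from the other challenged arrays. Its macrophage marker mean was 0.0053 above the unchallenged WT mean on the log2 scale, against 1.12 to 1.49 on the other challenged arrays.

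The members that rose with challenge when the responses of both genotypes were averaged were Plau, Plat, Plaur and Serpina3n. These 4 of 8 were called higher at an adjusted p under 0.05 (limma, Benjamini-Hochberg over all genes tested), in a comparison that called 22.9% of all genes. Within a single genotype, 1 of 8 was called in WT, where 4.65% of all genes were called, and 1 of 8 in smSocs3-KO, where 2.36% were called. Between genotypes, 0 of 8 was called before challenge (0.0264% of all genes, 6 genes) and 1 of 8 at day 3 (1.07% of all genes). The genotype by challenge interaction called 0 of 8 members and 0% of all genes, with 0 members and 1254 genes at an unadjusted p under 0.05. At the methods' threshold, p under 0.01 with a fold change above 4 or below 0.25, the members called numbered 0 in the WT response (1.24% of all genes), 1 in the smSocs3-KO response (1.57%), 1 between unchallenged genotypes (0.237%) and 2 between challenged ones (1.09%). Serpinb2 was 1 of the last 2, although its probe was not well above background on any challenged WT array. The median change over the 8 members was 0.53 in WT and 0.90 in smSocs3-KO on the log2 scale, beside medians of -0.044 and -0.10 over all genes. The 2 groups compared did not overlap for 4 of 8 members in the WT response and 2 in the smSocs3-KO response. Between genotypes they did not overlap for 1 member before challenge and 2 at day 3. Serpinb2 was 1 of these 2. It passed the filter only through the challenged smSocs3-KO group, so its place in the day 3 counts is not independent of the filter. Over all genes, in either direction, the shares without overlap were 35.31%, 28.87%, 11.03% and 21.35% in the same order. With 3 arrays per group, a lack of overlap was thus not rare and does not by itself set a member apart. These comparisons share arrays with each other, so their values stand side by side and are not independent.

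**Figure D1:**
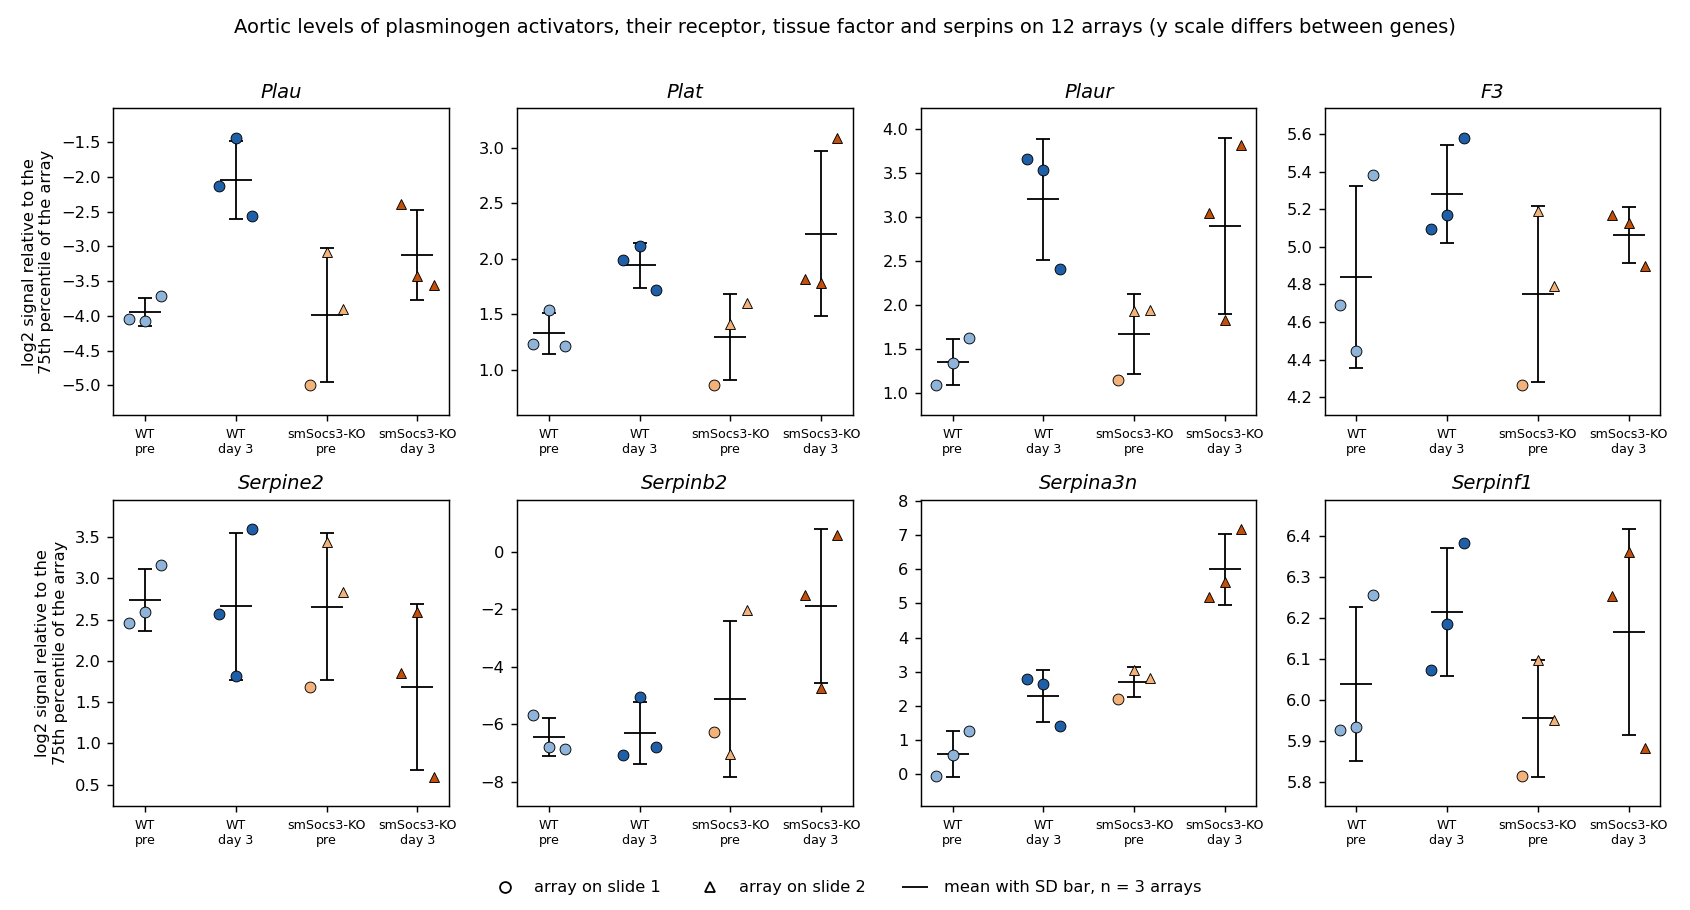
Each panel shows 1 gene on the 12 arrays as log2 signal relative to the 75th percentile of the array. Points are arrays, circles lie on slide 1 and triangles on slide 2, and bars give the mean with SD (n = 3). Serpina3n on the challenged smSocs3-KO arrays lay between 5.20 and 7.17, above all other arrays, whereas F3 and Serpinf1 overlapped between all groups.

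Plau encodes urokinase. Its probe was dim and was well above background on 11 of 12 arrays, the exception being smSocs3-KO array 1 before challenge. In WT, the log2 signal was -4.04, -4.08 and -3.71 before challenge and -2.13, -1.44 and -2.56 at day 3. The WT groups did not overlap. Plau rose 3.73-fold in WT (log2 change 1.90, SE 0.47, adjusted p = 0.0482 by limma). Removal of 1 array ended this call for 9 of the 12 arrays, all but challenged WT array 4 and unchallenged smSocs3-KO arrays 1 and 3, with adjusted p between 0.0221 and 0.175, and the change was 0.69 after normexp background correction. In smSocs3-KO, the levels were -5.00, -3.08 and -3.90 before challenge and -2.39, -3.43 and -3.56 at day 3. These groups overlapped, and the log2 difference of 0.87 (SE 0.47) was not called (adjusted p = 0.280, limma). At day 3 the smSocs3-KO mean was 1.08 below the WT mean on the log2 scale (95% confidence interval from -2.12 to -0.036 for smSocs3-KO minus WT, adjusted p = 0.287, limma). The WT and smSocs3-KO responses differed by -1.03 (95% confidence interval from -2.51 to 0.44), which was not called either. The mean response of both genotypes was 1.38 (adjusted p = 0.0176, limma). It was 0.34 after normexp background correction and was then not called (adjusted p = 0.107, limma).

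Plat encodes tissue-type plasminogen activator, which endothelium stores and releases. Its levels in WT were 1.23, 1.54 and 1.22 before challenge and 1.99, 2.11 and 1.72 at day 3. In smSocs3-KO they were 0.86, 1.42 and 1.60 before challenge and 1.82, 1.78 and 3.09 at day 3. Every challenged array lay above every unchallenged array of its genotype, although such a lack of overlap was not rare over all genes. The day 3 spread in smSocs3-KO came mostly from array 5. The log2 change was 0.61 in WT (SE 0.33, adjusted p = 0.261) and 0.93 in smSocs3-KO (SE 0.33, adjusted p = 0.131), and limma called neither. The mean of both responses was called (0.77, adjusted p = 0.0385, limma). That call was lost on removal of any 1 of the 3 unchallenged WT arrays, challenged WT array 1 or 3, or smSocs3-KO array 1 before challenge, with adjusted p up to 0.0877. It was also lost with slide as a block (adjusted p = 0.0768, limma) and with quantile normalization (adjusted p = 0.0511). The interval for the interaction, from -0.72 to 1.36, includes differences of either sign.

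Plaur encodes the urokinase receptor, a lipid-anchored protein that holds urokinase at the cell surface and is abundant on activated macrophages and neutrophils. RefSeq (GRCm38.p6) places the 250 bases before its start at chr7:24462233-24462482 on the plus strand, shown here because Plaur is a member that rose with challenge, with matches in capitals to AP-1 (TGANTCA) and to the GC box (GGGCGG) on either strand.
Plaur: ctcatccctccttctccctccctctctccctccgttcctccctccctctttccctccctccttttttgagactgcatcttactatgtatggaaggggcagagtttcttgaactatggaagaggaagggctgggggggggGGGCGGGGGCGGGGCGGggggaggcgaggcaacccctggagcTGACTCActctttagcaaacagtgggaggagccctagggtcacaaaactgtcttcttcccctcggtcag
The AP-1 match ends 62 bases before the start, and 3 adjoining GC boxes lie upstream of it. Of 32851 promoter windows of this length, 6.75% held the AP-1 letters and 32.7% the GC box. Members called in no comparison held them as well, with 2 AP-1 matches and 3 GC boxes before F3 and 6 GC boxes before Serpine2. In WT, Plaur levels were 1.09, 1.34 and 1.62 before challenge and 3.66, 3.54 and 2.40 at day 3. All challenged WT arrays lay above the unchallenged ones, and array 4 was the lowest of the challenged arrays. The 3.61-fold difference (log2 1.85, SE 0.48) was just outside the call (adjusted p = 0.0541, limma), and without challenged WT array 4 it was 2.25 and called (adjusted p = 0.0146, limma). It was also called at 1.85 without smSocs3-KO array 1 before challenge or array 3 or 5 at day 3, which enter only the estimate of the spread. In smSocs3-KO, the levels were 1.14, 1.93 and 1.94 before challenge and 3.05, 1.82 and 3.82 at day 3. Challenged array 3 lay below the top of the unchallenged arrays, so these groups overlapped (log2 difference 1.23, SE 0.48, adjusted p = 0.162, limma). The mean of both responses was 1.54 (adjusted p = 0.0134, limma). It was called with each array left out in turn, with adjusted p between 0.00444 and 0.0391. Genotype differences were 0.32 before challenge and -0.30 at day 3 on the log2 scale, with intervals from -0.74 to 1.39 and from -1.37 to 0.76.

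Markers of macrophages and monocytes moved with challenge beside these genes. Their mean over 9 tested genes lay between -0.072 and 0.053 before challenge in WT and between 0.0053 and 1.49 at day 3, and between 0.094 and 0.40 and between 1.30 and 1.41 in smSocs3-KO (log2 signal above the unchallenged WT mean). All 9 were well above background on every array. Their summed level, which the brightest genes dominate, ranged from 7.51 to 7.83 and from 7.32 to 8.15 in WT, and from 7.15 to 8.30 and from 7.51 to 7.73 in smSocs3-KO. With challenge, 0 of the 9 were called in WT, 3 were called higher in smSocs3-KO and 7 in the mean response. In the same order, these comparisons called 4.65%, 2.36% and 22.9% of all genes. Itgam had a lower mean with challenge in both genotypes (-0.15 in WT and -0.54 in smSocs3-KO). The 4 tested neutrophil markers had means from -0.50 to 1.25 in WT, from -0.59 to 0.71 in smSocs3-KO before challenge and from 0.82 to 3.42 in smSocs3-KO at day 3. Their summed level did not rise, with 7.39 to 8.55 before challenge and 7.41 to 7.65 at day 3 in smSocs3-KO. In WT it ranged from 8.07 to 8.45 and from 7.62 to 8.42. With challenge in smSocs3-KO, 3 of the 4 had higher means and Csf3r a lower one (-0.41). Smooth muscle markers gave means from -0.87 to -0.37 on the challenged smSocs3-KO arrays and from -0.66 to 0.080 on the challenged WT arrays. The part of these cell types in the changes of Plau, Plat, Plaur and Serpina3n was not tested.

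F3 encodes tissue factor, the membrane receptor that starts coagulation by binding factor VII. It did not pass the test in any comparison. Its brighter probe ranged from 4.26 to 5.58 over the 12 arrays, and the 4 groups overlapped. The log2 difference with challenge was 0.44 in WT (95% confidence interval from -0.19 to 1.07) and 0.32 in smSocs3-KO (from -0.31 to 0.94). The second F3 probe, which spans 738 bases of the genome with its 60 bases and so crosses an exon junction, gave 0.43 and 0.31. Both probes of F3 thus gave nearly equal differences.

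Serpine2 encodes protease nexin-1, which inhibits thrombin, urokinase and tissue-type plasminogen activator. It was the member with the widest spread inside groups among those well above background on all arrays. WT levels were 2.46, 2.59 and 3.17 before challenge and 2.57, 1.82 and 3.60 at day 3. In smSocs3-KO they were 1.69, 3.45 and 2.83 before challenge and 1.85, 2.59 and 0.60 at day 3. The groups overlapped in both genotypes. Challenged smSocs3-KO array 5, the lowest for Serpine2, was the highest for Plat, Plaur, Serpinb2 and Serpina3n. The log2 difference with challenge was -0.076 in WT (95% confidence interval from -1.39 to 1.24) and -0.98 in smSocs3-KO (from -2.29 to 0.34, adjusted p = 0.326, limma). At day 3, smSocs3-KO minus WT was -0.98 (adjusted p = 0.438, limma).

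Serpinb2 encodes plasminogen activator inhibitor type 2, an inhibitor of urokinase that activated macrophages and epithelial cells make. RefSeq (GRCm38.p6) holds 2 start sites for it. The window before the upstream one, at chr1:107511173-107511422 on the plus strand, is shown because the challenged smSocs3-KO group was the only 1 with Serpinb2 well above background on all 3 arrays, with capitals for AP-1 (TGANTCA) and the TATA box (TATAAA).
Serpinb2: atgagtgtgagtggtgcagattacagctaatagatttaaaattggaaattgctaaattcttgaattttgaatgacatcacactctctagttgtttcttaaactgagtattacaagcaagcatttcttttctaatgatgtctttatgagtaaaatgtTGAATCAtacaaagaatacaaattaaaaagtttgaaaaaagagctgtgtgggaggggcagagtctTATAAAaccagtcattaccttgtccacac
The TATA match ends 23 bases before the start and the AP-1 match 87 bases before it. TATAAA on either strand was in 12.4% of all windows. The Serpinb2 probe was well above background on 0 of 3 WT arrays before challenge, 0 of 3 at day 3, 1 of 3 smSocs3-KO arrays before challenge and 3 of 3 at day 3. Measured levels in WT ran from -7.06 to -5.05, which at this brightness are not well above background. In smSocs3-KO, the levels were -6.28, -7.03 and -2.04 before challenge and -1.52, -4.72 and 0.57 at day 3. Serpinb2 was thus measured on unchallenged smSocs3-KO array 4 and on all 3 challenged smSocs3-KO arrays. At day 3 the smSocs3-KO mean was 5.93-fold above a floor for the WT arrays. For each WT array, this floor was the lowest signal of any probe well above background there, or the probe's own where that was higher. Probes differ in the signal at which they pass, so this fold is approximate and no strict lower bound. Challenged smSocs3-KO array 3 (-4.72) lay below the mean of that floor (-4.46). Serpinb2 passed the filter only through the challenged smSocs3-KO group, so tests that involve this group are not independent of the filter. The genotype difference at day 3 was not called (adjusted p = 0.170, limma). With challenge, no difference was called in smSocs3-KO either (adjusted p = 0.194, limma), and the groups overlapped because of unchallenged array 4. No fold is given for it, because the other 2 unchallenged arrays were not well above background.

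Serpina3n encodes a secreted serpin that inhibits leukocyte proteases and granzyme B and is known as an acute phase gene. It was the member with the clearest differences. RefSeq (GRCm38.p6) places the 250 bases before its start at chr12:104406458-104406707 on the plus strand, shown because this gene was the only member called between genotypes.
Serpina3n: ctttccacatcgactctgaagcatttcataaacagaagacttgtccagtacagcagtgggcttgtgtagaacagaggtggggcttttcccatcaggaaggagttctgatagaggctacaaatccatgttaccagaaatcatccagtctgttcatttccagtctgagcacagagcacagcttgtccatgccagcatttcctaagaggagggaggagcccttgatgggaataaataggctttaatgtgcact
The letters of AP-1 (TGANTCA), STAT (TTCNNNGAA), the TATA box (TATAAA) and the GC box (GGGCGG) are not in this window on either strand, so no base is in capitals. STAT letters were in 7.02% of all windows. Among the 7 windows analysed here, which belong to 6 members (those of Plau and Plat were not analysed here), the STAT letters were in 1, the window before the downstream start of Serpinb2.

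In WT, Serpina3n levels were -0.053, 0.55 and 1.27 before challenge and 2.79, 2.64 and 1.41 at day 3. In smSocs3-KO they were 2.20, 3.06 and 2.82 before challenge and 5.20, 5.62 and 7.17 at day 3. The 4 groups were ordered with WT before challenge lowest and smSocs3-KO at day 3 highest, and challenged WT and unchallenged smSocs3-KO overlapped between them. Serpina3n rose 9.88-fold with challenge in smSocs3-KO (log2 3.30, SE 0.55, adjusted p = 0.0206, limma). Without unchallenged array 1 or 3 or challenged array 5 it was 3.06, 3.49 and 2.72, and each time just outside the call (adjusted p = 0.0807, 0.0573 and 0.0690, limma). In WT the difference was 3.23-fold (log2 1.69, SE 0.55), with no overlap but outside the call (adjusted p = 0.0866, limma). Without challenged WT array 4 it was 2.13 and called (adjusted p = 0.0296, limma). The mean of both responses was 2.50 (adjusted p = 0.00550, limma).

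At day 3, Serpina3n was 13.1-fold higher in smSocs3-KO than in WT (log2 3.72, SE 0.55, adjusted p = 0.0174, limma), and with each array left out in turn it was called at values from 3.13 to 4.12. Before challenge it was higher by 2.10 on the log2 scale (SE 0.55, unadjusted p = 0.00278), a difference without overlap that passed the methods' threshold but not the adjusted one (adjusted p = 0.580, limma). The response was larger in smSocs3-KO by 1.61 on the log2 scale, with an interval from -0.091 to 3.31 that includes 0 (adjusted p = 0.922, limma).

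The genotypes lay mostly on different slides, and the Serpina3n calls depended on how this was treated. Inside slide 1, unchallenged smSocs3-KO array 1 was 1.61 above the mean of the 3 unchallenged WT arrays. Inside slide 2, the challenge difference in smSocs3-KO was 3.06 (adjusted p = 0.0931, limma). With slide as a block, which ties the slides together through that 1 array alone, the genotype difference at day 3 was 2.97 and not called (adjusted p = 0.248, limma), in a fit that called 0 of all 22758 genes for this comparison. In a fit of only the 2 groups compared, its value was the same and it was not called (adjusted p = 0.0886, limma). At day 3, each genotype lay on its own slide, so slide and genotype cannot be told apart there.

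**Figure D2:**
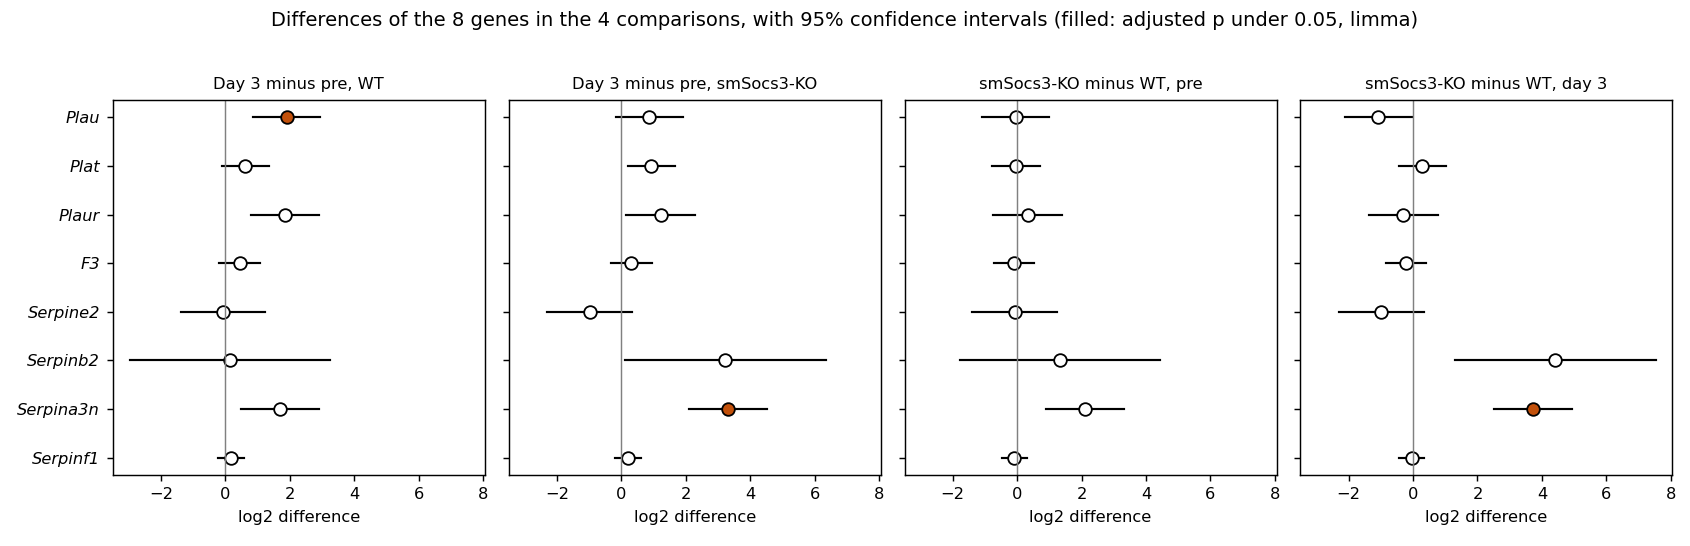
Points give the log2 difference of each gene in 4 comparisons and lines its 95% confidence interval from limma. Filled points had an adjusted p under 0.05. Serpina3n in smSocs3-KO and at day 3 and Plau in WT were filled, and Serpinb2, whose probe was not well above background on any WT array, had the widest intervals.

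Mesothelial markers separated the genotypes in the same way. Mesothelium is the thin covering of serous surfaces next to the aorta. All 7 of its markers had higher means in smSocs3-KO, with and without challenge, although 0 of 7 were called (limma; 6 of 7 at day 3 passed the methods' threshold). Their summed level ranged from 1.93 to 4.47 in WT and from 4.78 to 5.96 in smSocs3-KO before challenge, and from 1.44 to 3.74 and from 4.85 to 5.53 at day 3. The ranges of the genotypes did not overlap at either time. On every array at least 5 of the 7 were well above background. With challenge, 7 of 7 had lower means in WT and 6 of 7 in smSocs3-KO, and 0 of 7 were called in either genotype. Fibroblast markers stood apart between the genotypes at day 3 only. Their mean over 6 genes lay between 0.41 and 0.88 in smSocs3-KO and between -0.19 and 0.13 in WT at day 3, and between -0.016 and 0.15 and between -0.10 and 0.11 before challenge. Their summed level at day 3 was at least 9.51 in smSocs3-KO and from 9.22 to 9.49 in WT, and all 6 were well above background on every array. Of the 6, 5 had higher means in smSocs3-KO at day 3, Lum by only 0.099, and Col1a1 had a lower one (-0.48). Only Dpt was called higher (1.97, adjusted p = 0.0247, limma), in a comparison that called 1.07% of all genes. The day 3 means of the other 8 marker lists overlapped between the genotypes, although the summed level of smooth muscle markers did not (10.53 to 10.79 in smSocs3-KO and 10.83 to 11.20 in WT). The part of mesothelial, fibroblast or smooth muscle RNA in the genotype differences of Serpina3n and Serpinb2 was not tested.

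**Figure D3:**
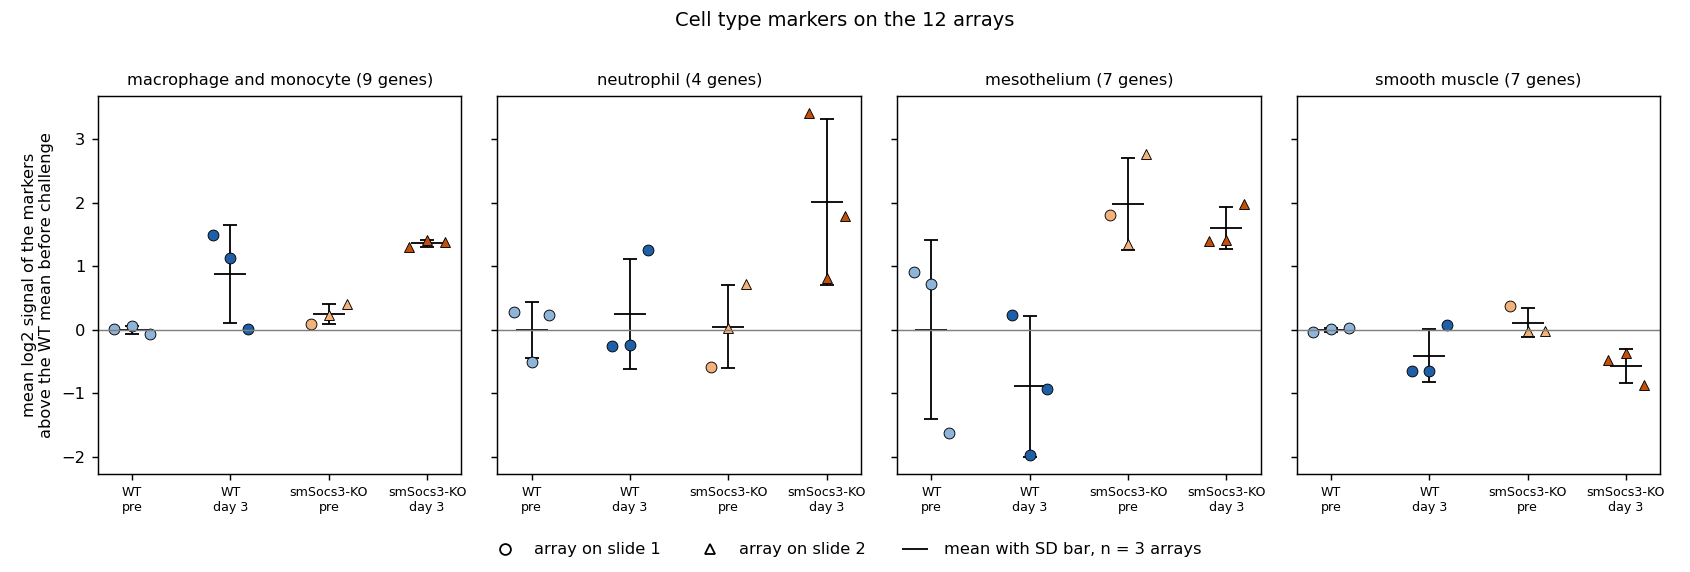
Each panel gives the mean log2 signal of the tested markers of 1 cell type on each array, above the mean of the 3 unchallenged WT arrays. Circles lie on slide 1 and triangles on slide 2, and bars give the mean with SD (n = 3). Mesothelial markers lay between 1.35 and 2.77 on the smSocs3-KO arrays and at most at 0.90 on the WT arrays.

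Serpinf1 encodes pigment epithelium-derived factor, a serpin that inhibits no protease and restrains vessel growth. It did not pass the test in any comparison. Its brighter probe stayed between 5.82 and 6.38 on all 12 arrays. The log2 difference with challenge was 0.17 in WT (95% confidence interval from -0.22 to 0.56) and 0.21 in smSocs3-KO (from -0.18 to 0.60). The second Serpinf1 probe was more variable, from 2.50 to 3.86, and gave 0.044 and -0.18. Its sign in smSocs3-KO was opposite to that of the first probe, and neither probe moved beyond its spread.

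The closest relatives of Serpina3n were measured on the same arrays. Mouse carries a cluster of Serpina3 genes on chromosome 12, and 7 others besides Serpina3n were tested. Among all 28 other serpins tested of 57 on the array, 2 rose in WT, 3 rose in smSocs3-KO, 0 were called before challenge and 3 were higher in smSocs3-KO at day 3, with none lower. In the same order, these comparisons called 4.65%, 2.36%, 0.0264% and 1.07% of all genes. Serpina3i rose with challenge in smSocs3-KO (log2 3.21, adjusted p = 0.0394) and was higher in smSocs3-KO at day 3 (3.85, adjusted p = 0.0265), both by limma. Serpina3c was higher in smSocs3-KO at day 3 (3.58, adjusted p = 0.0483, limma), where its levels were -0.996, -0.40 and 2.61, beside -3.13, -2.98 and -3.41 in WT. Array 5 was by far the highest of these. Serpina3f was called higher with challenge in WT (adjusted p = 0.0410) and in smSocs3-KO (log2 2.60, adjusted p = 0.0283, limma). In WT the unchallenged arrays were not well above background, and the day 3 mean was 2.33-fold above a floor set as for Serpinb2. Serpina3f passed the filter only through the challenged groups, so these calls are not independent of the filter. Serpina3g reached 0.02 and -0.08 on challenged WT arrays 1 and 3 but stayed at -3.47 on array 4, and was not called in either genotype. Its levels on the challenged smSocs3-KO arrays were 1.41, 0.66 and 0.47. Serpina3m lay at 0.53, 0.78 and 3.93 there. Its genotype difference at day 3 (2.75) passed the methods' threshold but not the adjusted one (adjusted p = 0.0914, limma). Serpina3b was not called in any comparison, although its unchallenged smSocs3-KO levels (-2.78, -2.60 and -2.67) lay below those of unchallenged WT (-2.03, -2.26 and -2.55) and of challenged smSocs3-KO (-2.38, -2.52 and -2.13).

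Serpina3i was also the gene whose levels were most like those of Serpina3n over the 12 arrays (Pearson r = 0.994, and 0.972 after subtraction of group means), given as a description. At the best ungapped alignment, the Serpina3n probe shared at most 23 of its 60 bases with any probe of the other Serpina3 genes, and the longest shared run was 7 bases. Probes were compared with probes and not with whole transcripts, so these counts do not test which transcripts the Serpina3n probe can bind. The arrays do not show whether transcripts of these closely related paralogs bound the Serpina3n probe, so their separate values are uncertain.

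**Figure D4:**
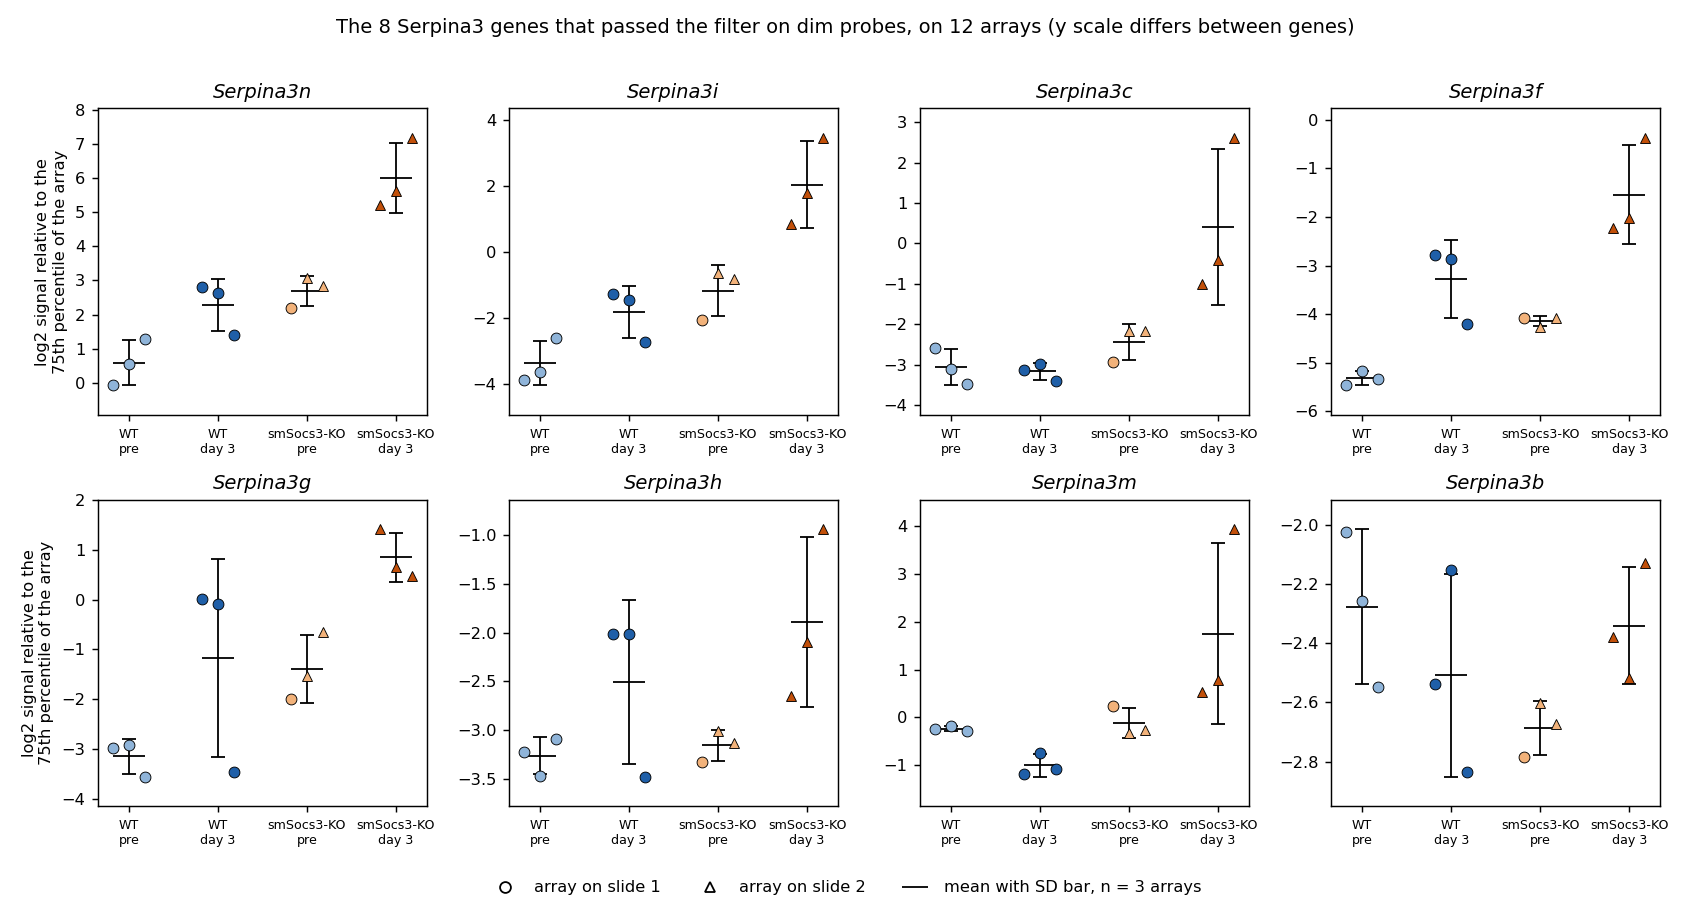
Each panel shows 1 of the 8 tested Serpina3 genes on the 12 arrays as log2 signal relative to the 75th percentile of the array, with circles for slide 1, triangles for slide 2 and bars for the mean with SD (n = 3). Serpina3n, Serpina3i, Serpina3c, Serpina3f, Serpina3g and Serpina3m were highest on the challenged smSocs3-KO arrays, whereas Serpina3b stayed between -2.83 and -2.03.

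Outside that cluster, Serpinb6b, an intracellular serpin, rose in both genotypes (log2 1.05 in WT, adjusted p = 0.0479, and 1.21 in smSocs3-KO, adjusted p = 0.0418, limma). Serpinb5, the epithelial serpin maspin, was called higher in smSocs3-KO at day 3 (adjusted p = 0.0437, limma). It was then not well above background on the WT arrays, and the smSocs3-KO mean was 6.48-fold above a floor set as for Serpinb2. Serpinb5 passed the filter only through the smSocs3-KO groups, so this call is not independent of the filter. In the mean response, 9 of 28 were called higher and 0 lower, beside 22.9% of all genes called in either direction.

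The rest of the plasminogen system was described by 14 tested genes of 19 on the array. In WT, 2 of 14 were called higher, Eno1 (log2 1.12, adjusted p = 0.0322) and Anxa2 (0.93, adjusted p = 0.0460), both of which can bind plasminogen on cell surfaces (limma). In smSocs3-KO, 0 of 14 were called, and the smallest p belonged to Thbs1 (3.18, adjusted p = 0.0647, limma) and Pzp (-0.82, adjusted p = 0.174). The WT response called 4.65% of all genes and the smSocs3-KO response 2.36%. Between genotypes, 0 of 14 were called at either time. The smallest p at day 3 was that of Lrp1, the endocytic receptor that clears activator and inhibitor complexes (0.43, adjusted p = 0.179, limma). In the mean response, 5 of 14 were called higher, led by Thbs1 (3.18), which encodes thrombospondin and binds plasminogen, and including S100a10 (0.62), the partner of Anxa2. Another 3 of 14 were called lower, namely Cpb2 (-0.95), the carboxypeptidase that slows fibrinolysis, and the receptors Sorl1 (-0.98) and Vldlr (-0.88), beside the same 22.9% of all genes. The median over the 14 genes was 0.034 in WT and 0.25 in smSocs3-KO on the log2 scale.

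Among 20 tested genes of 32 for coagulation and its restraint, 3 rose in WT, namely Tfpi, the inhibitor of tissue factor (log2 1.18, adjusted p = 0.0322), Vkorc1 (0.68, adjusted p = 0.0400) and Tfpi2 (adjusted p = 0.0420, limma). Tfpi2 was not well above background on the unchallenged WT arrays and was so on 2 of 3 challenged ones. Its day 3 mean in WT was 1.33-fold above a floor set as for Serpinb2. It passed the filter only through the challenged smSocs3-KO group. In smSocs3-KO, F13a1, the fibrin crosslinking factor that macrophages also make, rose by 1.72 (adjusted p = 0.0178, limma). At day 3, Gas6, a vitamin K-dependent ligand, was 1.26 higher in smSocs3-KO than in WT (adjusted p = 0.0126, limma). Before challenge, 0 of 20 were called, where 0.0264% of all genes were. In the mean response 5 of 20 were called higher and 0 lower, a share near the 22.9% of all genes. In WT, smSocs3-KO and at day 3 the shares over all genes were 4.65%, 2.36% and 1.07%.

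The genes most like the other members over the 12 arrays are given by Pearson r as a description, since arrays of 1 group share their condition. Serpinb2 was most like Saa1 (r = 0.968) and Saa2 (0.955), which encode serum amyloid A, the classical acute phase proteins, and then Grasp (0.941). After subtraction of group means, Saa1 still stood first (0.953), followed by Nxph3 (0.944) and Saa2 (0.939). The Serpinb2 probe was well above background on only 4 of the 12 arrays, so its r values include levels that are not. Plaur was most like Srm, Lrrc59 and Ddx39 (0.980 to 0.982), and after subtraction of group means Ppp3ca and Socs3 stood first (both 0.971). Plat was most like Arhgap42 (0.965) and Plau like 2310037I24Rik and Glipr1 (0.971 and 0.967). Serpine2 was most like Tmem47 (0.977), F3 like Ndufa11 (0.918) and Serpinf1 like Fam32a (0.900). Among the members themselves, Plat and Plaur followed each other over the arrays (0.848, and 0.768 after subtraction of group means), as did F3 and Serpinf1 (0.866 and 0.819).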

How the data were processed

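Per the labels, total RNA of mouse aorta was labelled with Cy3 and hybridised to 12 one-colour Agilent arrays, 3 per group. The authors deposited 1 scanner file per array, with a processed intensity per spot from Feature Extraction 10.7.1.1 in the file headers (9.5.1.1 in the submitters' processing notes), background-subtracted on a linear scale, and a table of normalized signal intensity, used here as an alternative. Control and outlier spots were left out, log2 values were taken, the 75th percentile of the array was subtracted, and spots of a probe were averaged. A probe passed (32280 of 55681 did) if every array of some group had it well above background (13 SDs), and the brightest such probe represented a gene. Group means were fitted with limma 3.58.1 (R 4.3.3) over 22758 genes, with Benjamini-Hochberg adjustment. A simulation with 200 changed genes, drawn with independent noise and no slide effect, checked the fit under those conditions only. Gene names and positions (mm9) are the array's, and names of all 8 members are in RefSeq. The 8 members, and the lists of plasminogen, coagulation, serpin and cell type genes, were chosen with earlier results of these data known. All 8 members at every probe were named, and from the lists of pathway genes those called, at most 5 per list and comparison, or otherwise up to 2 of smallest p. Serpina3b, Serpina3g, Serpina3m and the correlations among members were added after their values were seen. Values of 1 listed gene are not reported here. For each member, the genes of highest Pearson r were listed. Alternatives covered background, normalization, filter, probe choice, variances, arrays, slide, replicate number and call rule. The number of arrays limits the precision.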

Additional observations from a re-analysis of the deposited data

How the results depend on the processing

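Of 476 values of single genes under settings other than the omission of an array, direction and side of the threshold were kept by 425, and of 576 with 1 array left out by 525. The count of members called in the WT response was 0 with the methods' threshold, normexp, quantile normalization, the authors' value table, no filter, only the groups compared, only slide 1 and the replicate block, and 2 with an intensity trend or slide as a block. It ranged from 0 to 3 with 1 array left out. The smSocs3-KO response gave 0 with slide as a block, only slide 2 and the replicate block, and 0 to 1 with 1 array left out. The genotype difference at day 3 gave 2 with the methods' threshold and 0 with only the groups compared, slide as a block and the replicate block, and before challenge the methods' threshold gave 1. The mean response gave 1 with the methods' threshold and the replicate block, and 3 to 4 with 1 array left out.

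Same-numbered samples of different groups deviated together in 4 of 11 pairs (correlation over 0.1, range -0.403 to 0.464). Their median correlation was 0.073, beside -0.0057 for the other pairs. So few pairs cannot show whether the numbers mark anything shared. With the replicate block, Serpina3n was called in the mean response only, and genes called fell from 1059 to 0 in the WT response, from 537 to 1 in the smSocs3-KO response and from 244 to 2 between genotypes at day 3.

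Some values changed sign, and none of these was called in the fit as reported or where its sign was opposite. Most were near 0, but before the change of setting Serpinb2 between unchallenged genotypes was 1.33, Plau in the smSocs3-KO response 0.87 and Serpine2 in the interaction -0.90. In the WT response, Serpinb2 was -0.088 with normexp and -0.17 with the replicate block, and Serpinf1 -0.10 with quantile normalization and -0.099 with the value table. Plau in the smSocs3-KO response was -0.0085 with normexp. Before challenge, Plau was 0.065, 0.039, 0.042 and 0.23 with normexp, quantile normalization, the value table and the replicate block, F3 0.0012 and Serpinf1 0.14 with mean probes, Plaur -0.21 with slide as a block and with only slide 1, and Plat 0.025 with the replicate block. At day 3, Serpinf1 was 0.095, 0.095, 0.041 and 0.12 with quantile normalization, the value table, mean probes and the replicate block, and Plat -0.36 and -0.30 with slide and replicate block. In the interaction, F3 was 0.053, 0.053 and 0.19 with quantile normalization, the value table and the replicate block, Serpinf1 -0.095 and -0.033 with mean probes and slide as a block, Plat -0.33 and Serpine2 0.31 with the replicate block. With 1 array left out, ranges that include both signs were -0.48 to 0.53 (Serpinb2) and -0.54 to 0.35 (Serpine2) in the WT response. Before challenge they were -0.19 to 0.18 (Plat), -0.50 to 0.46 (Plau), -0.31 to 0.18 (F3), -0.48 to 0.40 (Serpine2), -0.16 to 0.024 (Serpinf1) and -0.21 to 2.29 (Serpinb2). At day 3 they were -0.15 to 0.094 (Serpinf1), -0.76 to 0.23 (Plaur) and -0.14 to 0.51 (Plat), and in the interaction -0.40 to 0.095 (F3), -0.072 to 0.18 (Serpinf1) and -0.11 to 0.54 (Plat). The cause of these shifts was not tested. Signal over background limits Plau and Serpinb2, the members not well above background on every array.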
